A study of Mus musculus with 12 samples.

Results

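The response of Sel1L-deficient brown fat to cold was measured on 6 of the 12 arrays of the series: 3 arrays labelled adipocyte-specific Sel1L-deficient at 4 °C and 3 with the same genotype label at room temperature. Arrays were taken by their titles, and every difference is 4 °C minus room temperature on the log2 scale of the deposited values. The animals were C57BL/6J mice that carried floxed Sel1L together with an Adiponectin-Cre transgene (Sel1LAdipCre), and the other 6 arrays came from Sel1L f/f littermates, which the labels call wildtype. All mice had been fasted for 5 h, and this was also the time spent at 4 °C or at room temperature. Adiponectin-Cre acts in adipocytes, so the vessels, nerves and immune cells of the tissue keep Sel1L. The sample labels name brown adipose tissue and the design text names isolated brown adipocytes. In bulk tissue, fewer cells of a type and less RNA per cell cannot be told apart. Age and sex are not given in the labels.

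Brown fat burns lipid and glucose for heat. Cold drives its sympathetic nerves, noradrenaline raises cAMP in the adipocyte, and cAMP induces early transcription factors, the coactivator PGC-1α, the deiodinase Dio2 and the uncoupling protein Ucp1. Sel1L holds together the complex of the ubiquitin ligase Hrd1. That complex serves ER-associated degradation (ERAD), which pulls misfolded proteins out of the endoplasmic reticulum (ER) for the proteasome. When ERAD is missing, misfolded proteins are sensed by IRE1α, PERK and ATF6, whose targets make up the unfolded protein response.

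The 3 arrays of each group correlated at r = 0.989 to 0.993 across probe sets, against 0.978 to 0.985 between the groups. On the first principal component of all 12 arrays, which held 35.5% of the variance, the room temperature arrays labelled Sel1L-deficient lay at -22.07 to -12.8 and those at 4 °C at 30.11 to 39.19. Nothing in the labels says that arrays with the same number came from the same litter or day, so p-values reflect only how far these 6 and the other 6 arrays scatter within their groups, which may be technical. One wildtype array, replicate 3 at room temperature, has a source name that says 4 °C while its title and its temperature entry say room temperature. It scored -30.71 on that component, with the other wildtype arrays at -38.36 and -36.88 at room temperature and at 5.99 to 26.73 at 4 °C. It enters the cold response of the Sel1L-deficient tissue only through the shared estimate of the spread. Skeletal muscle transcripts varied between arrays without following temperature: the mean of 22 muscle markers was 5.70, 2.74 and 3.44 at room temperature and 2.47, 5.98 and 5.15 at 4 °C in the Sel1L-deficient groups, and 0 of them passed the test.

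Sel1l itself read 6.18, 6.09 and 5.92 at room temperature and 6.90, 6.73 and 6.54 at 4 °C. The groups did not overlap, and the difference was 0.66 ± 0.14 SE (adjusted p = 0.0124) by limma with 3 arrays per group, a call lost without room temperature replicate 3 (0.0524) or 4 °C replicate 1 (0.0603). At 4 °C the wildtype arrays read 6.99, 6.69 and 7.04, and the genotypes differed by -0.19 ± 0.14 SE (adjusted p = 0.605) there, so that this reading did not check the genotype label of the cold arrays. Where the probes of this set lie relative to the floxed exons was not analysed here. The genotype is therefore given as labelled. Derl3, an ERAD gene of the unfolded protein response, read 9.09 to 9.24 in the 3 cold arrays labelled Sel1L-deficient and 3.04, 3.47 and 3.11 in the wildtype arrays at 4 °C.

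Of 23521 probe sets tested, 2123 passed at an adjusted p under 0.05 in the Sel1L-deficient arrays, a background share of 9.03%. Of these, 1017 (4.32% of those tested) rose and 1106 (4.7%) fell, and 604 changed at least 2-fold, 349 up and 255 down. With every array shifted to one median the split was 1183 up and 851 down. The count depended on single arrays: it was 1396 without room temperature replicate 2, 1378 without 4 °C replicate 1 and 1276 without 4 °C replicate 2. With the wildtype array of conflicting label moved to the 4 °C wildtypes, it was 1044. Of the genes named below, that move alone ended the calls of Fosb, Angpt1, Trarg1, Plk3, Atf3, Sec24a, Dio2, Ppargc1a, Thra, Cebpa, Serpina3n, Slc27a1, Scd3, Ppp1r3d, Hmox1, Hsph1, Dnaja4, Dnajb1, Psma1, Pik3r1, Pgf, Aplnr, Ebf2, Emcn, Cspg4 and Atf4, with adjusted p from 0.0504 to 0.462. In all it ended 55 of the 157 calls among the named genes. List counts below stand against 4.32% up and 4.7% down over all probe sets, and against 4.85% and 6.23% in wildtype arrays. That background includes dim probe sets, whereas a list holds the brightest probe set of each gene. The fit limited to probe sets of mean 4 or more called 1015 up and 1037 down, and the shares among these were not computed. Lists were chosen with earlier results of these data known, so the comparison with the background is not independent of that choice. Log2 levels of different genes are not comparable, since probe sets differ in brightness.

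Among called genes whose groups did not overlap and whose brighter group had a mean of at least 5, the 15 largest rises included a secreted hormone, clock genes and early response factors. Values with ± are log2 differences and their standard errors (SE), and adjusted p-values are limma's. Fgf21 (probe set 17490899), a hormone of brown fat and liver, read 4.40, 2.90 and 4.06 at room temperature and 8.06, 8.27 and 7.86 at 4 °C. Every cold array was far above every room temperature array, a 19.3-fold rise (4.27 ± 0.35 SE, adjusted p = 3.24e-05). Prg4, the lubricating proteoglycan lubricin, followed with 4.63, 3.85 and 3.48 at room temperature and 8.47, 7.65 and 7.64 at 4 °C (3.93 ± 0.32 SE, adjusted p = 3.41e-05). Npas2 (probe set 17212087), a partner of the clock factor BMAL1, rose from 2.05, 1.99 and 1.70 at room temperature to 5.13, 5.77 and 6.08 at 4 °C (3.74 ± 0.19 SE, adjusted p = 8.56e-07). The room temperature values of Npas2 and of Fosb lay near the array medians of 2.03 to 2.09, and no fold is given for them because signal over background was not assessed. The orphan nuclear receptor Nr4a3 rose 11.7-fold. The other named rises were Fabp9, a fatty acid binding protein (3.49 ± 0.47), the cytokine signalling inhibitor Socs2 (3.48 ± 0.42), Fosb, Maff, the peroxisomal thioesterase Acot5 (3.01 ± 0.22), Arntl, Irf4, the helicase Ddx28, the zinc finger gene Prdm15, the matrix protein gene Thbs1 and the phosphate transporter Slc20a1 (2.53 ± 0.16). Fabp9 was the least even of them, at 3.98 in 4 °C replicate 1 and 5.88 and 6.46 in the others.

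The 15 largest falls by the same rule included genes of insulin signalling, receptors for metabolites and a regulator of lipogenesis. Irs3 (probe set 17454114), an insulin receptor substrate, read 4.99, 5.05 and 5.18 at room temperature and 2.55, 2.29 and 2.12 at 4 °C, a 6.75-fold fall with no overlap (-2.75 ± 0.14 SE, adjusted p = 8.56e-07). Hcar1, the lactate receptor through which lactate restrains lipolysis, read 5.20, 5.89 and 4.82 at room temperature and 2.57, 2.33 and 2.87 at 4 °C (-2.72 ± 0.35 SE, adjusted p = 0.000628). The tetraspanin Tspan18 differed by -2.56 ± 0.35 and Cish, a feedback inhibitor of cytokine signalling, by -2.44 ± 0.33. Ppp1r3b, which brings a phosphatase to glycogen, B3galt2, a galactosyltransferase (-2.37 ± 0.33), Per3, Srebf1, the ATP-gated channel P2rx5 (-2.19 ± 0.21), Angpt1, Myct1 (-2.16 ± 0.21), the carboxypeptidase subunit Cpn2 (-2.12 ± 0.28), Phlda3 (-2.11 ± 0.19), the interferon-inducible GTPase Irgm2 (-2.03 ± 0.29) and Trarg1 (-1.99 ± 0.26), a protein of GLUT4 vesicles, completed the 15. The minimum on brightness left out 1 larger rise, Drd1 (2.91 ± 0.20), and 1 larger fall, Gbp4 (-2.28 ± 0.34).

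**Figure D1:**
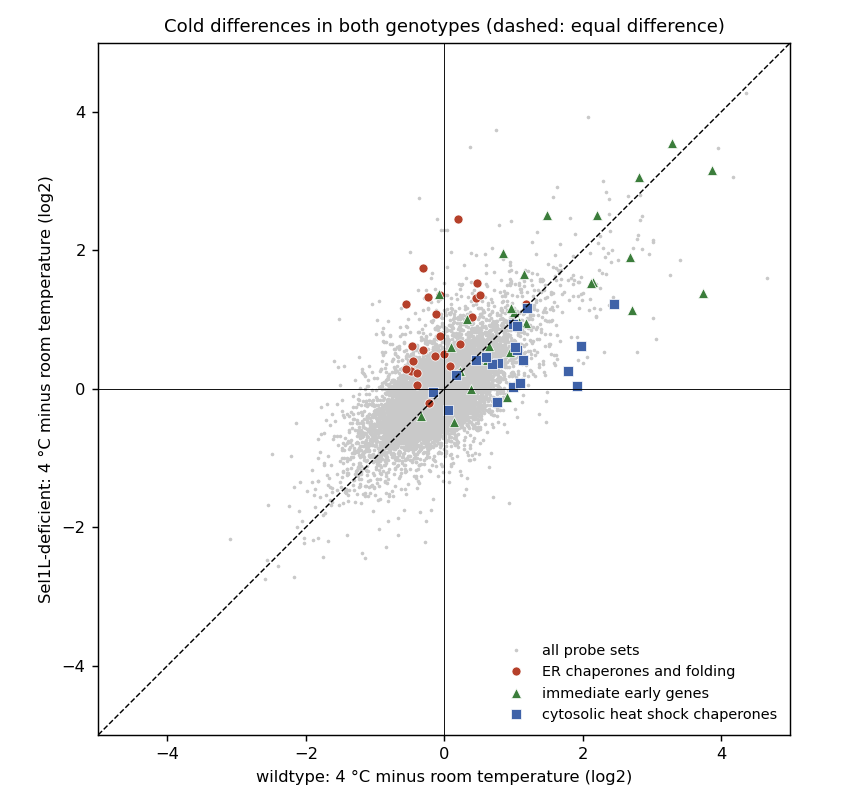
Log2 difference between 4 °C and room temperature in Sel1L-deficient tissue (vertical axis) against wildtype tissue (horizontal axis) for 23521 probe sets (grey), with 3 gene lists coloured and 1 point per gene; the dashed line marks equal differences. Genes of ER folding lie above the line, with a median of 0.65 against -0.12, immediate early genes spread along it at medians of 1.14 and 1.01, and cytosolic heat shock genes lie mostly below it at medians of 0.39 and 1.01.

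Genes of protein folding in the ER rose with cold in the Sel1L-deficient tissue. Of the 25 ER chaperone and folding genes measured, 16 rose and 0 fell, against 4.32% of all probe sets rising, and the list's median was 0.65, against -0.01 over all probe sets. Fkbp11 (probe set 17321318), a prolyl isomerase of the ER, read 4.12, 3.23 and 3.70 at room temperature and 6.26, 6.08 and 6.07 at 4 °C. Every cold array was above every room temperature array, a rise of 5.47-fold (2.45 ± 0.22 SE, adjusted p = 6.71e-05). Creld2 (probe set 17313998), an ER protein with disulfide isomerase activity, read 8.14, 8.78 and 7.69 at room temperature and 9.55, 10.23 and 10.07 at 4 °C and rose 3.35-fold (1.75 ± 0.24 SE, adjusted p = 0.000834). Ero1a and Ero1b, the oxidases that feed disulfide bonds to newly made proteins, rose by 1.52 ± 0.27 and 1.23 ± 0.21. Dnajb11, a J-domain partner of BiP, read 7.93, 8.0 and 7.54 at room temperature and 9.14, 9.33 and 9.08 at 4 °C (1.36 ± 0.15 SE, adjusted p = 0.000223). Hspa5, the gene of BiP itself and the central chaperone of the ER, rose 2.05-fold from 8.91, 9.08 and 8.76 at room temperature to 9.68, 10.21 and 9.98 at 4 °C (1.04 ± 0.14 SE, adjusted p = 0.000643). Sdf2l1, another BiP partner, rose by 1.31 ± 0.20. In the wildtype arrays 2 of the 25 genes rose and 3 fell, against 4.85% and 6.23% of all probe sets, with a median of -0.12. The count of rises in the Sel1L-deficient arrays ran from 14 to 18 over all alternatives.

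The genotypes differed in this response for 8 of the 25 folding genes by the interaction test, which asks whether the cold differences themselves differ and which called 0.306% of all probe sets. All 8 were higher in the Sel1L-deficient arrays (0.23% of probe sets). Fkbp11 differed by 2.25 ± 0.31 SE (adjusted p = 0.0111) between the responses, Creld2 by 2.05 ± 0.34 SE (adjusted p = 0.0294), Ero1b by 1.78 ± 0.30 SE (adjusted p = 0.0311) and Dnajb11 by 1.42 ± 0.21 SE (adjusted p = 0.0169). Each of these 4 lost its interaction call under at least 1 alternative: with all 41345 probe sets in the adjustment, the adjusted p was 0.0564 for Fkbp11, 0.112 for Creld2, 0.116 for Ero1b and 0.0742 for Dnajb11. Creld2, Ero1b and Dnajb11 also lost it without 4 °C replicate 2 (0.099, 0.099 and 0.0744). Hspa5 had an interaction of 0.63 ± 0.19 SE (adjusted p = 0.251) and Sdf2l1 of 0.85 ± 0.28 SE (adjusted p = 0.301), which did not pass.

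The promoters of several of these genes hold the ER stress element (CCAAT, any 9 bases, then CCACG), to which ATF6 binds together with NF-Y. It was searched on both strands of the 300 bases around each RefSeq start (250 before to 50 after, build GRCm38.p6). A match was found in 39 of 32851 promoters of the table, or 0.119%, and in 0.15% of the 20611 promoters of genes tested. Among promoters of genes that rose with cold in the Sel1L-deficient arrays the share was 0.93% (9 of 968), and among those of genes that fell it was 0.0898% (1 of 1114). Of 16 promoters of the folding genes that rose, 6 held it (37.5%), and of 14 promoters of the folding genes not called, 2 did (14.3%). A gene can have several promoters: counted by gene it was 6 of 14 that rose and 2 of 8 not called. The 6 genes were Creld2, Dnajc3, Ero1b, Hspa5, Hsp90b1 and Calr, and of the ERAD genes that rose Syvn1 and Derl3 held it too. A match is a run of letters and says nothing of binding. Printed here are the promoters of the folding gene with the largest rise among these, of BiP, and of both ERAD genes, with the element in capitals.
Creld2, chr15:88819396-88819695, plus strand: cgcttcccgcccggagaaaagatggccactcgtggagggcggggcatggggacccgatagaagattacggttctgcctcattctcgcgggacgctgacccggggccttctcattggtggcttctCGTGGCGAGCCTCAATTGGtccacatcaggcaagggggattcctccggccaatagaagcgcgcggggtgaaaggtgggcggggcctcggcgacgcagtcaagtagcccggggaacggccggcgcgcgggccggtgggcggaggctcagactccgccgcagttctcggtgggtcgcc
Hspa5, chr2:34771840-34772139, plus strand: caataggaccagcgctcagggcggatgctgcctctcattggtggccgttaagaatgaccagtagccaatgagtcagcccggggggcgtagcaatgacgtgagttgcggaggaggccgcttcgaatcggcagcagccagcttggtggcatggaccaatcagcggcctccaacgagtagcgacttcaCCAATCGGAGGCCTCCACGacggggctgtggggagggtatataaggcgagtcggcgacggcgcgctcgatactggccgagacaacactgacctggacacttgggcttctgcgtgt
Syvn1, chr19:6046326-6046625, plus strand: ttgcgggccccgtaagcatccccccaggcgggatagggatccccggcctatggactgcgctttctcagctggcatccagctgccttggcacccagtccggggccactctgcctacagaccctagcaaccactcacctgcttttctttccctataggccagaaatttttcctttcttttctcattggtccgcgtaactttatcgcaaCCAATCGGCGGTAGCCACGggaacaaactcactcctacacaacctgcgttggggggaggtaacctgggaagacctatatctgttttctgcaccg
Derl3, chr10:75893148-75893447, plus strand: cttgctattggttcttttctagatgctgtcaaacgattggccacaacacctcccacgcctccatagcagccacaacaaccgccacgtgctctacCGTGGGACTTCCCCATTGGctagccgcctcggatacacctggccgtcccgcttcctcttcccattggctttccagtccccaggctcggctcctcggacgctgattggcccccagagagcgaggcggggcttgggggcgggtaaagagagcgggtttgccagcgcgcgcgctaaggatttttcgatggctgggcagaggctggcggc

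In Creld2 and Derl3 the element runs on the opposite strand, so the printed capitals start with CGTGG, and it lies 126 to 108 and 156 to 138 bases before the start. In Hspa5 it lies 65 to 47 bases and in Syvn1 44 to 26 bases before the start. The core TGACGTGG of the element bound by XBP1 was in 2.07% of promoters of genes that rose, 0.359% of those that fell, 0.839% of genes tested and 0.676% of all. Among the folding genes it was in 0 of 16 promoters of those that rose and in 2 of 14 of those not called.

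ERAD genes rose as well. Of 20 measured members 8 rose and 0 fell, with a median of 0.31, and the wildtype arrays had 2 up and 3 down. Syvn1 (probe set 17356583), which encodes the ligase Hrd1 itself, read 7.37, 7.26 and 6.46 at room temperature and 8.39, 9.17 and 8.79 at 4 °C. Its cold arrays were above all room temperature arrays, and it rose 3.37-fold (1.75 ± 0.23 SE, adjusted p = 0.000591). Herpud1, a membrane protein that organises the Hrd1 complex, was nearly constant within each group at 9.11, 8.96 and 9.06 at room temperature and 10.30, 10.40 and 10.28 at 4 °C (1.28 ± 0.15 SE, adjusted p = 0.00036). Derl3, a derlin that helps proteins leave the ER, rose 2.68-fold (1.42 ± 0.15), and Selenos, which links derlins to the ATPase p97, rose 2.25-fold (1.17 ± 0.12). The response of Herpud1 was larger than in wildtype arrays by 1.51 ± 0.21 SE (adjusted p = 0.0116), and that of Syvn1 by 1.71 ± 0.32 SE (adjusted p = 0.0492). The Syvn1 interaction call was lost under 16 of 20 alternatives (adjusted p up to 0.144), and that of Herpud1 under 3, one of them without 4 °C replicate 2 (0.0534). Derl3, at 1.0 ± 0.22 SE (adjusted p = 0.0878), did not pass.

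Of 14 sensors and transcription factors of the unfolded protein response, 4 rose and 1 fell. The fall was that of Mbtps1, the protease gene that cuts ATF6 (-0.44 ± 0.13 SE, adjusted p = 0.0467), and it was lost under 13 of 16 alternatives, with 0 falls without any one of the 6 arrays or wildtype room temperature replicate 3. It is named here after its value was seen. Atf6, the membrane-bound factor released by ER stress, rose by 1.13 ± 0.18, Ern1, the gene of the sensor IRE1α, by 1.02 ± 0.14, and Eif2ak3, the gene of PERK, by 0.53 ± 0.14 with an adjusted p of 0.032 that reached 0.126 without 4 °C replicate 2. Creb3l2, an ATF6-like factor of secretory cells, read 5.60, 5.65 and 5.46 at room temperature and 6.36, 6.64 and 6.71 at 4 °C (1.0 ± 0.12 SE, adjusted p = 0.000353). It fell in the wildtype arrays (-0.53, adjusted p = 0.0112), so its responses ran in opposite directions and differed by 1.53 ± 0.16 SE (adjusted p = 0.00169). Moving the array of conflicting label ended that call (0.0613), and limma then called 0 probe sets in wildtype arrays. Xbp1, whose mRNA IRE1α splices, read 7.90, 8.43 and 8.11 at room temperature and 8.37, 8.35 and 8.41 at 4 °C, with overlapping groups (0.23 ± 0.14 SE, adjusted p = 0.402). The values sum over its spliced and unspliced forms. Ddit3, the gene of CHOP, differed by 0.41 ± 0.14 SE (adjusted p = 0.106).

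Coat proteins of ER export followed. Of 23 measured genes of the translocon and of COPII and COPI coats, 12 rose and 0 fell, with a median of 0.42, against 5 up in wildtype arrays. Sec24d, a cargo adaptor of the COPII coat, read 7.10, 7.38 and 7.40 at room temperature and 8.90, 9.10 and 8.96 at 4 °C, with all cold arrays within 0.2 log2 units of each other, and rose 3.22-fold (1.69 ± 0.13 SE, adjusted p = 2.3e-05). Sec23b (0.96 ± 0.17) and Sec24a (0.76 ± 0.15), further COPII subunits, and Ssr1 of the translocon (0.72 ± 0.15) rose too. The count of 12 was 6 without 4 °C replicate 1 and 7 without room temperature replicate 1. The interaction was called for 0 of the 23 by limma (11 at an unadjusted p under 0.05), and Sec24d had one of 0.97 ± 0.19 SE (adjusted p = 0.0581).

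**Figure D2:**
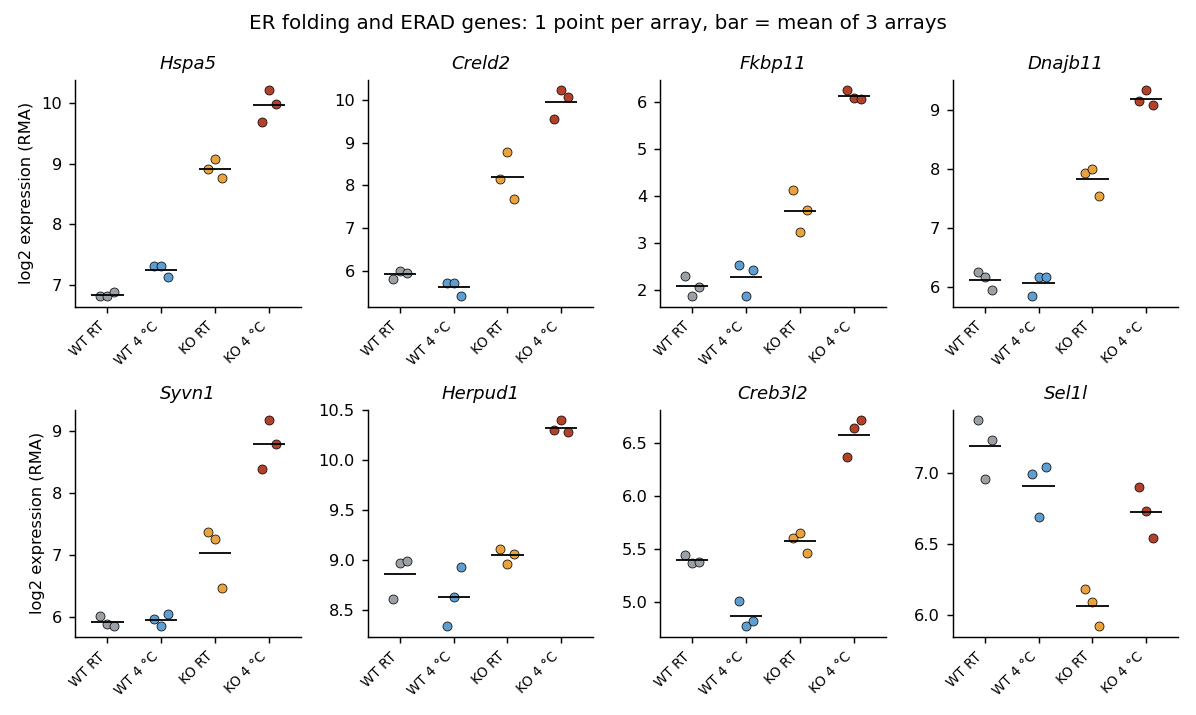
Log2 expression of 8 ER genes, 1 point per array, in wildtype (WT) and Sel1L-deficient (KO) tissue at room temperature (RT) and 4 °C, with bars at the means of 3 arrays; the vertical scales differ between genes and do not start at 0. In Fkbp11, Creld2, Dnajb11, Syvn1 and Herpud1 the 3 cold KO arrays lie above all other arrays, while the WT groups overlap in all of these but Creld2, and Sel1l is lowest in the KO arrays at room temperature.

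The integrated stress response, in which ATF4 is translated when eIF2α is phosphorylated, rose in 12 of 29 measured genes and fell in 0. Wildtype arrays had 14 up and 0 down, and the medians were 0.48 and 0.82. After Fgf21, which belongs to this list, the largest rise was that of Ppp1r15a, the gene of GADD34, which removes the phosphate from eIF2α. It read 4.38, 4.48 and 4.97 at room temperature and 6.86, 6.83 and 6.96 at 4 °C, with cold arrays within 0.13 of each other (2.27 ± 0.17 SE, adjusted p = 1.55e-05). The amino acid transporter gene Slc7a5 rose by 2.12 ± 0.19 and Sesn2, which restrains mTORC1, by 1.79 ± 0.21. Atf4 itself rose by 0.92 ± 0.19. Atf3, a stress-induced repressor, read 4.67, 3.91 and 4.51 at room temperature and 6.26, 5.63 and 5.33 at 4 °C in the Sel1L-deficient arrays and 3.67, 3.30 and 3.14 at room temperature and 7.64, 6.92 and 6.75 at 4 °C in the wildtype arrays. It rose 2.6-fold in the first (1.38 ± 0.28 SE, adjusted p = 0.00901) and 13.3-fold in the second, an interaction of -2.36 ± 0.40 SE (adjusted p = 0.0314) that was lost under 12 of 20 alternatives (up to 0.897, with the array of conflicting label moved). Of 17 aminoacyl-tRNA synthetases, targets of ATF4 that charge tRNAs, 9 rose and 0 fell, against 10 up in wildtype arrays, and the 9 were 5 without room temperature replicate 3 or 4 °C replicate 1. Nars (1.11 ± 0.14), Wars (0.85 ± 0.17), Tars (0.82 ± 0.16) and Rars (0.79 ± 0.13) led them.

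Immediate early genes, which cAMP and kinases switch on without new protein synthesis, rose in 17 of 27 measured members and fell in 0. Their median was 1.14, and wildtype arrays had 16 up, 0 down and a median of 1.01. Nr4a3 (probe set 17413945) read 4.87, 4.48 and 4.29 at room temperature and 7.84, 8.17 and 8.26 at 4 °C (3.55 ± 0.17 SE, adjusted p = 8.43e-07). Fosb, an AP-1 subunit, rose from 2.08, 1.73 and 2.07 at room temperature to 5.81, 4.78 and 4.79 at 4 °C (3.17 ± 0.32 SE, adjusted p = 0.000142). The small Maf factor Maff read 2.58, 1.43 and 2.61 at room temperature and 5.04, 5.43 and 5.33 at 4 °C (3.06 ± 0.28 SE, adjusted p = 6.71e-05), and Fos, the partner of Jun in AP-1, read 3.03, 2.83 and 3.57 at room temperature and 5.62, 5.97 and 5.37 at 4 °C (2.52 ± 0.40 SE, adjusted p = 0.00201). In these 4 genes the groups did not overlap. Nr4a1, the relative of Nr4a3, read 5.66, 5.90 and 7.81 at room temperature and 8.75, 8.18 and 8.15 at 4 °C; room temperature replicate 3 was nearly as high as the cold arrays, and the difference was 1.90 ± 0.83 SE (adjusted p = 0.212). The interaction passed for 1 of the 27, Atf3.

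Genes that dampen cAMP and kinase signals rose in 9 and fell in 2 of 35 measured members, with 10 and 3 in wildtype arrays. Sik1, a kinase induced by cAMP that restrains CREB coactivators, rose by 1.37 ± 0.28. The scaffold gene Akap12 rose by 1.71 ± 0.37, a call lost without 4 °C replicate 1 (0.0514), and the phosphodiesterase gene Pde7b by 1.40 ± 0.40, a call near the threshold (adjusted p = 0.0475) that was lost under 12 of 16 alternatives (up to 0.173). Akap1, the anchor that ties protein kinase A to mitochondria, fell 2.78-fold, from 8.87, 8.74 and 8.81 at room temperature to 7.27, 7.37 and 7.35 at 4 °C, with each group within 0.13 log2 units (-1.47 ± 0.14 SE, adjusted p = 8.05e-05). Of 18 measured adipocyte receptors 0 rose and 3 fell: Hcar1, P2rx5 and Lgr4 (-0.82 ± 0.16). In wildtype arrays 3 rose and 4 fell.

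The cAMP response element TGACGTCA, the full palindrome that CREB binds, was found on either strand in 37 of 968 promoters of genes that rose (3.82%), 17 of 1114 of genes that fell (1.53%), 2.32% of genes tested and 1.79% of all. Of 17 promoters of early genes that rose 2 held it, those of Maff and Btg2. Among the thermogenic genes it was in the promoter of Dio2. The promoters of Maff, an early gene, and Dio2, a thermogenic gene, are shown because they hold the element, which is in capitals. Most promoters of early genes that rose did not hold it.
Maff, chr15:79347270-79347569, plus strand: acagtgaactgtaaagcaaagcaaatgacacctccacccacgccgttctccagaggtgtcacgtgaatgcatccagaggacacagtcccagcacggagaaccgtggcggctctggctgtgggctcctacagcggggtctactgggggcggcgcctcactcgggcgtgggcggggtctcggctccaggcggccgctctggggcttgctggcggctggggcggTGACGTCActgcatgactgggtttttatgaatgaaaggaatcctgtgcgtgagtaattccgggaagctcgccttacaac
Dio2, chr12:90738989-90739288, minus strand: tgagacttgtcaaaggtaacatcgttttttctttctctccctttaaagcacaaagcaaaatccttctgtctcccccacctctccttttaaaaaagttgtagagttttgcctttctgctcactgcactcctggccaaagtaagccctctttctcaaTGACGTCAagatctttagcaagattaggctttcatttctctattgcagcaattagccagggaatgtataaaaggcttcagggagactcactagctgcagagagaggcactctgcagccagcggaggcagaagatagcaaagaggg

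The element lies 29 to 22 bases before the start of Maff and 95 to 88 bases before that of Dio2. The E-box CACGTG, read by the clock factors BMAL1, CLOCK and NPAS2 and by others, was in 12.7% of promoters of genes that rose, 7.99% of those that fell, 8.07% of genes tested and 7.15% of all. The core TGATGNAA of the amino acid response element was in 3.51% of promoters of genes that rose, 2.6% of those that fell, 3.39% of genes tested and 3.97% of all, and TTATGNAA of the D-box in 2.38%, 2.6%, 3.13% and 3.38%.

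Thermogenic effectors did not move together. Of 17 measured members, 2 rose and 3 fell. The 2 rises were 1 without room temperature replicate 3 or 4 °C replicate 1, 2 or 3 and 0 with the array of conflicting label moved. Dio2 (probe set 17282970), which makes the active thyroid hormone T3 inside the brown adipocyte, read 9.69, 8.49 and 8.92 at room temperature and 11.18, 11.09 and 10.91 at 4 °C and rose 4.08-fold (2.03 ± 0.35 SE, adjusted p = 0.00305). Ucp1, the proton leak of brown fat mitochondria, was near the top of the scale at 12.77, 12.47 and 12.48 at room temperature and 12.68, 12.72 and 12.73 at 4 °C, with overlapping groups (0.14 ± 0.11 SE, adjusted p = 0.587). Values near the top of the scale may be compressed, which was not tested. Ucp3, a relative of Ucp1, fell 3.38-fold, from 8.38, 8.04 and 8.40 at room temperature to 6.52, 6.55 and 6.47 at 4 °C (-1.76 ± 0.27 SE, adjusted p = 0.00151), and Acot11, a thioesterase of brown fat, fell by 1.11 on the log2 scale (SE 0.21). Aifm2, the gene of an NADH oxidase, rose by 0.51 ± 0.14, a call lost under 8 of 16 alternatives (0.132 without 4 °C replicate 1 or room temperature replicate 2). In wildtype arrays Ucp3 differed by -0.58 (adjusted p = 0.215), and its responses were not shown to differ (-1.18 ± 0.38 SE, adjusted p = 0.285). Elovl3, the cold-induced elongase, read 10.54, 10.92 and 9.77 at room temperature and 11.32, 11.02 and 11.14 at 4 °C; the groups did not overlap, and the difference of 0.75 ± 0.22 just missed the threshold (adjusted p = 0.0501), against 1.83 (adjusted p = 0.000342) in wildtype arrays and an interaction of -1.07 ± 0.31 SE (adjusted p = 0.216).

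Regulators of mitochondrial and lipid genes went both ways, with 2 of 19 coactivators and receptors of the PGC1, PPAR and ERR families up and 3 down. Ppargc1a, the gene of PGC-1α, read 8.42, 7.88 and 7.62 at room temperature and 9.61, 9.99 and 9.88 at 4 °C and rose 3.62-fold (1.85 ± 0.25 SE, adjusted p = 0.00082). Its rise was 3.41 (adjusted p = 2.09e-05) in wildtype arrays, and the interaction of -1.56 ± 0.36 SE (adjusted p = 0.106) did not pass. Ppara (probe set 17313862), the receptor that drives fatty acid oxidation genes, fell 3.74-fold. It read 7.42, 6.89 and 7.59 at room temperature and 5.48, 5.36 and 5.35 at 4 °C, with each cold array below every room temperature array (-1.90 ± 0.17 SE, adjusted p = 7.53e-05). In wildtype arrays it read 7.14, 7.06 and 7.26 at room temperature and 7.19, 6.68 and 6.81 at 4 °C (-0.26, adjusted p = 0.428). The responses differed by -1.64 ± 0.25 SE (adjusted p = 0.0188), a call lost under 6 of 20 alternatives, 5 of which left out a single array (up to 0.0793, without 4 °C replicate 2 of the Sel1L-deficient group). The estrogen-related receptor gene Esrrg (-1.53 ± 0.15) and the thyroid hormone receptor gene Thra (-1.03 ± 0.12) fell in both genotypes.

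Among brown adipocyte and C/EBP factors 4 of 23 rose and 3 fell. Irf4, which acts with PGC-1α in thermogenesis, read 4.32, 5.62 and 5.60 at room temperature and 8.33, 8.0 and 7.62 at 4 °C and rose 6.99-fold (2.80 ± 0.39 SE, adjusted p = 0.000904). The zinc finger factor Zbtb16 rose by 1.69 ± 0.20 and Cebpd, an early C/EBP, by 1.53 ± 0.24. Cebpa, the C/EBP of mature adipocytes, fell 3.19-fold, from 8.55, 8.55 and 8.44 at room temperature to 6.80, 6.67 and 7.05 at 4 °C (-1.67 ± 0.17 SE, adjusted p = 0.00016). Ebf2, a determinant of brown identity, fell by 0.93 on the log2 scale (SE 0.16), and Zic1, a brown marker, by 0.72 (SE 0.18), a call lost under 6 of 15 alternatives (0.117 without 4 °C replicate 2). These 6 genes had the same sign in wildtype arrays. Of 14 brown adipocyte markers 2 rose, Dio2 and Ppargc1a, and 2 fell, Ebf2 and Zic1, with a median of 0.05. Differences were positive in 9 of the 14 and negative in 5. The 2 falls were 1 without room temperature replicate 1 or 2 or 4 °C replicate 2 or 3. In wildtype arrays 4 of these markers rose and 2 fell. Of 15 adipocyte identity genes 0 rose and 2 fell, Lipe (-0.67 ± 0.11) and Acvr1c (-0.58 ± 0.15, a call lost under 8 of 16 alternatives, 0.134 without 4 °C replicate 2), which left 1 fall without room temperature replicate 2 or 3 or 4 °C replicate 2 or 3. Over all alternatives the falls ran from 1 to 5. Differences were negative in 13 of the 15 and positive in 2, with a median of -0.32 against -0.11 in wildtype arrays. An unadjusted limma p under 0.05 was reached by 10 of the 15, against 5 in wildtype arrays. Of 12 white adipocyte markers 0 were called by limma (1 at an unadjusted p under 0.05).

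**Figure D3:**
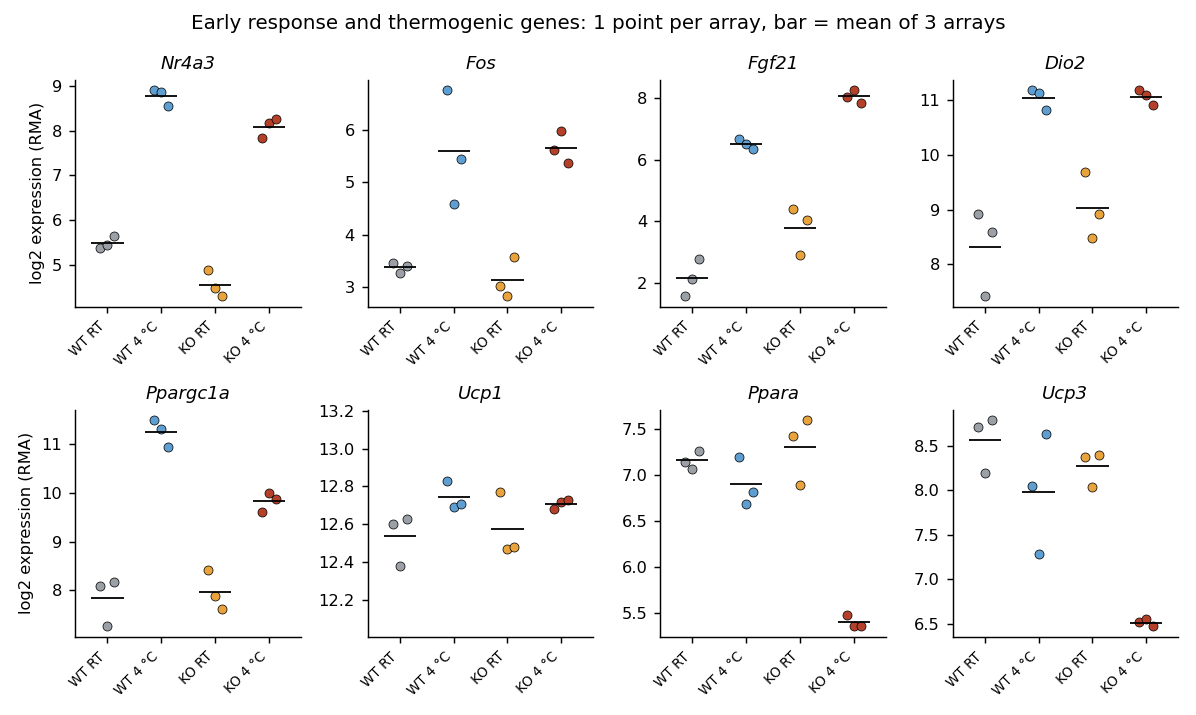
Log2 expression of 8 early response and thermogenic genes, 1 point per array, in wildtype (WT) and Sel1L-deficient (KO) tissue at room temperature (RT) and 4 °C, with bars at the means of 3 arrays; the vertical scales differ between genes and do not start at 0. Nr4a3, Fos, Fgf21, Dio2 and Ppargc1a are higher at 4 °C in both genotypes, Ucp1 stays between 12.38 and 12.83 on all arrays, and Ppara and Ucp3 are lowest on the 3 KO arrays at 4 °C.

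Secreted factors rose in 7 and fell in 3 of 31 measured members, and the 3 falls were 1 without 4 °C replicate 1 or 2. Beside Fgf21, the protease inhibitor gene Serpina3n rose by 2.04 ± 0.27 and the acute phase gene Saa3 by 1.22 ± 0.18. Angptl8, a secreted regulator of lipoprotein lipase, fell from 7.02, 7.12 and 6.80 at room temperature to 5.76, 6.06 and 6.35 at 4 °C (-0.92 ± 0.15 SE, adjusted p = 0.00223). It differed by 0.44 (adjusted p = 0.0863) in wildtype arrays, and the interaction was -1.36 ± 0.21 SE (adjusted p = 0.0235), lost under 7 of 20 alternatives (up to 0.12). Angptl4 (0.20, adjusted p = 0.581), Lpl (0.27, adjusted p = 0.208) and Vegfa (-0.13, adjusted p = 0.771) did not pass.

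Clock genes rose in 6 and fell in 5 of 20 measured members, against 4 and 3 in wildtype arrays. Arntl, the gene of BMAL1, read 5.07, 3.04 and 3.36 at room temperature and 6.71, 6.82 and 6.45 at 4 °C and rose 7.15-fold (2.84 ± 0.41 SE, adjusted p = 0.00105); room temperature replicate 1 stood well above the other 2. Nfil3, a repressor of D-box genes, rose by 2.10 ± 0.38 and Per1, an early responsive period gene, by 1.04 ± 0.21. Per3 fell 4.68-fold, from 5.05, 5.55 and 5.05 at room temperature to 2.87, 2.96 and 3.13 at 4 °C (-2.23 ± 0.21 SE, adjusted p = 9.25e-05). Nr1d1, the gene of REV-ERBα, had overlapping groups (-0.31, adjusted p = 0.708), and Dbp, a D-box activator, did not overlap but missed the threshold (-1.40, adjusted p = 0.0623). The 5 falls were 3 without room temperature replicate 1 or 2 or 4 °C replicate 1 or 2. Npas2 stood apart by genotype: wildtype arrays read 1.70, 1.70 and 1.64 at room temperature and 2.55, 2.28 and 2.45 at 4 °C, a rise of 0.75 ± 0.19. The responses differed by 3.0 ± 0.28 SE (adjusted p = 0.000515), a call kept under the 19 alternatives that included it (adjusted p up to 0.00861). The labels give no clock hour of collection.

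Insulin signalling and SOCS genes rose in 4 and fell in 4 of 24 measured members. Socs2, a target of STAT5 that restrains growth hormone signalling, read 4.84, 3.21 and 3.97 at room temperature and 7.65, 7.64 and 7.17 at 4 °C (3.48 ± 0.42 SE, adjusted p = 0.000426), whereas its relative Cish read 5.20, 5.68 and 5.70 at room temperature and 2.99, 3.03 and 3.25 at 4 °C (-2.44 ± 0.33 SE, adjusted p = 0.000789). The 2 family members moved in opposite directions with no overlap in either. Pik3r1, the regulatory subunit of PI3-kinase, fell by 1.76 on the log2 scale (SE 0.32). Glycogen genes fell in 5 and rose in 1 of 17. Ppp1r3b (probe set 17500543) fell 5.4-fold, from 6.87, 7.21 and 6.41 at room temperature to 4.48, 4.17 and 4.54 at 4 °C (-2.43 ± 0.27 SE, adjusted p = 0.000239), and its relatives Ppp1r3c (-1.55 ± 0.28) and Ppp1r3d (-1.22 ± 0.15), which also target the phosphatase to glycogen, fell as well. Pygb, a glycogen phosphorylase, fell by 0.99 (SE 0.26), a call lost under 6 of 16 alternatives (0.113 without 4 °C replicate 1), and the 5 falls were 3 without room temperature replicate 2 or 4 °C replicate 1 or 2. In wildtype arrays 4 of the 17 fell and 1 rose.

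Of 29 genes of glucose uptake and glycolysis 2 rose and 2 fell. Each was 6.9% of the list, near the 4.32% of all probe sets that rose and the 4.7% that fell. Slc2a1, the gene of the constitutive glucose transporter GLUT1, read 5.96, 5.51 and 5.48 at room temperature and 7.40, 7.21 and 7.13 at 4 °C and rose 3.03-fold (1.60 ± 0.18 SE, adjusted p = 0.000312). Pfkfb3, whose product raises the activator of phosphofructokinase, fell 3.4-fold, from 8.21, 7.90 and 8.19 at room temperature to 6.43, 6.27 and 6.31 at 4 °C (-1.77 ± 0.18 SE, adjusted p = 0.000142). Pdp2 (0.85 ± 0.20), a phosphatase of pyruvate dehydrogenase, and Pfkfb4 (-0.55 ± 0.14) also passed, calls lost under 4 of 16 and 7 of 15 alternatives (0.078 without 4 °C replicate 2 and 0.109 without 4 °C replicate 1). Each direction had 1 call without room temperature replicate 2 or 3 or 4 °C replicate 2, and there was 1 fall without 4 °C replicate 1.

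Of 20 measured genes of lipogenesis 4 fell and 1 rose, and the list's median was -0.50, against -0.03 in wildtype arrays. Srebf1, the gene of SREBP-1, read 6.39, 6.60 and 6.38 at room temperature and 4.12, 3.96 and 4.69 at 4 °C and fell 4.6-fold (-2.20 ± 0.22 SE, adjusted p = 0.000126). Mlxipl, the gene of the glucose-sensing factor ChREBP, read 8.55, 8.59 and 8.57 at room temperature and 7.36, 7.31 and 7.70 at 4 °C (-1.11 ± 0.13 SE, adjusted p = 0.00033). Thrsp, a lipogenic gene under both factors, fell by 1.54 on the log2 scale (SE 0.36), a call lost under 4 of 16 alternatives (0.0751 without room temperature replicate 2). The desaturase gene Scd3 rose by 1.46 ± 0.26. Fasn, fatty acid synthase, read 9.77, 11.06 and 9.46 at room temperature and 7.75, 8.90 and 9.62 at 4 °C, with overlapping groups (-1.34 ± 0.52 SE, adjusted p = 0.156). In triglyceride synthesis 2 of 16 rose and 3 fell: Lpin3 (1.25 ± 0.20) and the acyl-CoA synthetase gene Acsl4 (0.87 ± 0.13) rose, Agpat2 (-1.19 ± 0.25) and the final enzyme Dgat2 (-1.35 ± 0.35) fell. Without 4 °C replicate 1 limma called 0 of the 16 lower, with Dgat2 at an adjusted p of 0.123 and Agpat2 at 0.0505. The falls were 1 without room temperature replicate 2 or 3 or 4 °C replicate 2. Over the alternatives the difference ran from -1.58 to -0.97 for Dgat2 and from -1.40 to -1.06 for Agpat2.

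On the side of lipolysis and lipid droplets 3 of 21 rose and 4 fell, and wildtype arrays had the same counts. The 3 rises were 1 without room temperature replicate 1 or 2 or 4 °C replicate 2 or 3, and the 4 falls were 7 with limma's trended and robust variances. G0s2, the inhibitor of the lipase ATGL, fell 2.65-fold, from 8.63, 8.43 and 8.64 at room temperature to 7.30, 6.95 and 7.23 at 4 °C (-1.40 ± 0.12 SE, adjusted p = 3.92e-05), whereas Hilpda, another ATGL inhibitor, rose 2.95-fold, from 2.91, 3.06 and 3.22 at room temperature to 4.80, 4.49 and 4.58 at 4 °C (1.56 ± 0.15 SE, adjusted p = 0.000107). The coat protein genes Plin3 (-1.65 ± 0.30) and Plin5 (-1.26 ± 0.20) fell. Of 15 genes of lipid uptake, Gpihbp1, the endothelial anchor of lipoprotein lipase, rose by 0.47 ± 0.13 (lost under 9 of 16 alternatives, 0.133 without room temperature replicate 2) and the fatty acid transporter gene Slc27a1 fell by 1.23 (SE 0.26). Each of these calls was 6.7% of the uptake genes, near the 4.32% up and 4.7% down of all probe sets. The uptake genes had 0 rises without any one of the 6 arrays, and 2 falls without replicate 3 of either group. Of 18 genes of cholesterol synthesis 2 rose, Lss, lanosterol synthase, 3.67-fold from 5.62, 6.15 and 5.88 at room temperature to 7.83, 7.87 and 7.56 at 4 °C (1.88 ± 0.16 SE, adjusted p = 3.72e-05), and Msmo1 (0.83 ± 0.22, lost under 8 of 16 alternatives, 0.139 without 4 °C replicate 2), which left 1 rise without replicate 1 or 3 at room temperature or replicate 2 or 3 at 4 °C.

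**Figure D4:**
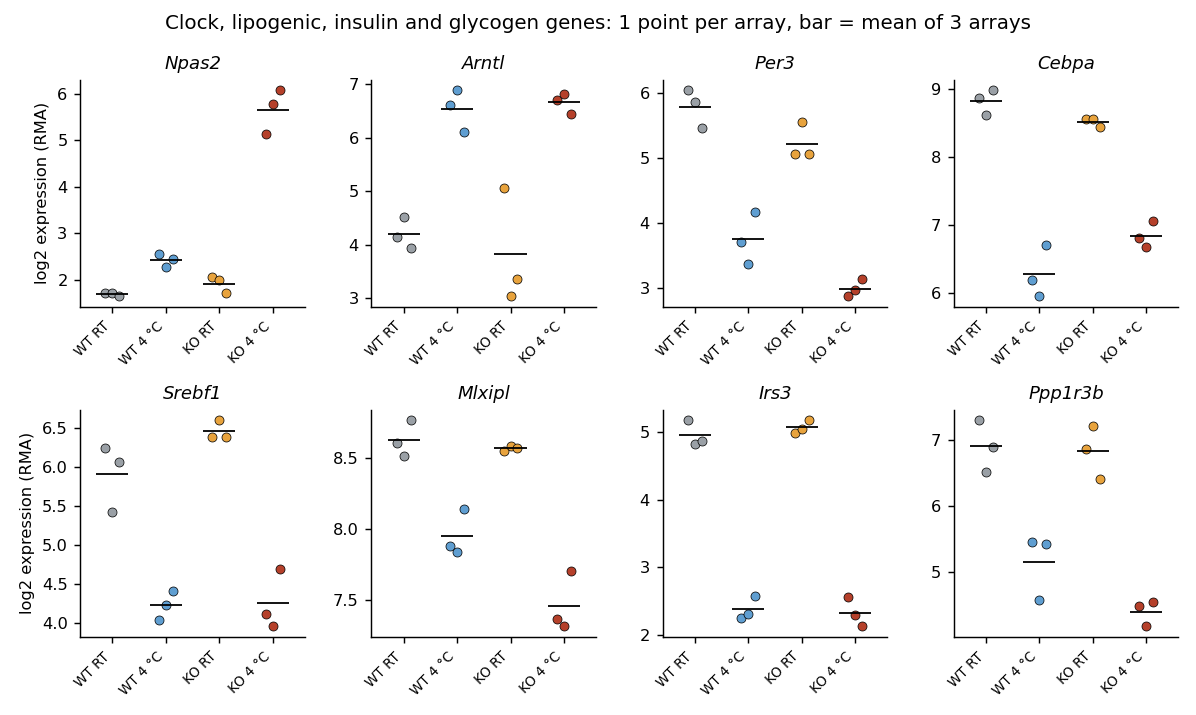
Log2 expression of 8 clock, lipogenic, insulin and glycogen genes, 1 point per array, in wildtype (WT) and Sel1L-deficient (KO) tissue at room temperature (RT) and 4 °C, with bars at the means of 3 arrays; the vertical scales differ between genes and do not start at 0. Arntl is higher and Per3, Cebpa, Srebf1, Mlxipl, Irs3 and Ppp1r3b are lower at 4 °C in both genotypes without overlap, and Npas2 lies between 5.13 and 6.08 on the cold KO arrays and at 2.55 or less on all others.

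Of 38 genes of oxidative phosphorylation 0 were called in the Sel1L-deficient arrays by limma, with a median of -0.05. Their differences ran from -0.23 to 0.28, and 1 had an unadjusted p under 0.05. Of 25 genes of fatty acid oxidation only the mitochondrial thioesterase gene Acot2 was called, as a rise (0.44 ± 0.12), and of 25 genes of the citrate cycle and branched-chain amino acid breakdown Mccc2 (-0.48 ± 0.14) and the pyruvate carboxylase gene Pcx (-0.44 ± 0.12) fell. In fatty acid oxidation 19 differences were negative and 6 positive, with a median of -0.12, and 9 genes had an unadjusted limma p under 0.05. In the citrate cycle list 19 were negative and 6 positive, with a median of -0.07, and 3 had such a p. The rise was 4.0% of its list and the 2 falls were 8.0% of theirs, against 4.32% up and 4.7% down over all probe sets. Those 3 calls were lost under 8, 11 and 11 of 16 alternatives, with adjusted p up to 0.128, 0.172 and 0.178, each highest without 1 array (4 °C replicate 1 for Acot2 and Mccc2, room temperature replicate 2 for Pcx). The rise in fatty acid oxidation was lost without any one of the 6 arrays but room temperature replicate 3, and the 2 falls were 1 without room temperature replicate 1 or 4 °C replicate 3 and 0 without any other of the 6 or wildtype room temperature replicate 3. Mitochondrial dynamics and the contacts of mitochondria with the ER are named in the title of the series. Of 19 fission and fusion genes 1 rose (Mtfr2, 0.90 ± 0.23) and 2 fell (Mtfr1l, -0.51 ± 0.14, and Mtfp1, -0.46 ± 0.12). These calls were lost under 8 of 15, 9 of 16 and 9 of 16 alternatives (up to 0.132, 0.133 and 0.13). None of the 3 was called without room temperature replicate 1 or 2 or 4 °C replicate 1 or 2, and the rise was not called without room temperature replicate 3. Mfn2, the mitofusin at ER contacts, read 8.87, 8.80 and 8.68 at room temperature and 8.66, 8.70 and 8.78 at 4 °C (-0.07 ± 0.10 SE, adjusted p = 0.801), and the fission GTPase gene Dnm1l read 8.18, 8.36 and 8.24 at room temperature and 8.13, 8.32 and 8.16 at 4 °C (-0.06 ± 0.10 SE, adjusted p = 0.852). Both sets of groups overlapped. Of 22 genes of ER-mitochondria contacts, the phosphatidylserine synthase gene Ptdss2 fell from 6.72, 7.03 and 7.11 at room temperature to 6.06, 5.88 and 6.33 at 4 °C (-0.87 ± 0.14 SE, adjusted p = 0.00216). The calcium channel gene Itpr2 (-0.52 ± 0.13) fell and Vapa, a tether of the ER membrane, rose (0.50 ± 0.14), calls lost under 8 and 9 of 16 alternatives (0.111 without room temperature replicate 2 and 0.134 without 4 °C replicate 2). The rise was lost without any one of the 6 arrays, and the 2 falls were 1 without any one but room temperature replicate 1. Atp2a2, the SERCA calcium pump of the ER, was the 1 of 19 genes of creatine and calcium cycling that passed (0.82 ± 0.16), and of 19 mitochondrial chaperones and proteases Hspe1 rose (0.65 ± 0.14, lost without 4 °C replicate 2, 0.0599). Rises were 5.3% of the fission and fusion, the cycling and the chaperone lists and 4.5% of the contact list, near the 4.32% of all probe sets. Falls were 10.5% of the fission and fusion list and 9.1% of the contact list, against 4.7%.

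Of 20 measured genes of cytosolic heat shock chaperones 4 rose and 0 fell in Sel1L-deficient arrays, with a median of 0.39, whereas 17 rose in wildtype arrays, with a median of 1.01. The interaction was called for 0 of the 20 by limma (9 at an unadjusted p under 0.05). Hsph1, an exchange factor of HSP70, rose by 1.23 ± 0.19 against 2.46 ± 0.19 in wildtype arrays, with an interaction of -1.23 ± 0.27 SE (adjusted p = 0.0981). Bag3 (1.17 ± 0.20 against 1.19 ± 0.20), Dnaja4 (0.93 ± 0.12 against 1.0 ± 0.12) and Dnajb1 (0.91 ± 0.16 against 1.05 ± 0.16) rose by like amounts in both. Members were named here only if called in the Sel1L-deficient arrays, so those called only in wildtype arrays are not among them. The 4 rises were 1 with the array of conflicting label moved, and 7 with each array shifted to one median or with only the 6 Sel1L-deficient arrays in the fit.

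NRF2 targets and metallothioneins, which answer oxidative stress, rose in 5 of 19 measured members and fell in 0. Hmox1, haem oxygenase, read 8.32, 6.70 and 7.25 at room temperature and 8.71, 9.66 and 9.59 at 4 °C (1.90 ± 0.34 SE, adjusted p = 0.0039). The cystine transporter gene Slc7a11 (1.40 ± 0.23) and Srxn1 (1.13 ± 0.12) rose, and Gclc, which catalyses the first step of glutathione synthesis, rose from 6.70, 6.91 and 6.53 at room temperature to 7.93, 7.69 and 7.76 at 4 °C (1.08 ± 0.13 SE, adjusted p = 0.000464). Its interaction of 1.13 ± 0.19 SE (adjusted p = 0.0294) was lost under 12 of 20 alternatives (up to 0.109). Of 17 proteasome subunits 2 rose, Psma1 (0.85 ± 0.14) and Psmc2 (0.41 ± 0.11, lost under 9 of 16 alternatives, 0.138 without 4 °C replicate 1), with 1 rise without any one of the 6 arrays. Of 25 autophagy genes 4 rose and 1 fell, with 2 falls without room temperature replicate 1. The 4 rises were 1 without 4 °C replicate 1 and 2 without 4 °C replicate 2 or 3 or room temperature replicate 3. Sqstm1, the cargo receptor p62, rose by 1.06 ± 0.14 and Calcoco1, an ER-phagy receptor, fell by 0.65 (SE 0.11). Gabarapl1 (0.65 ± 0.15) and Wipi1 (0.58 ± 0.13) rose with calls that were each lost under 4 of 16 alternatives (0.0731 without 4 °C replicate 2 and 0.0661 without 4 °C replicate 1).

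Interferon-stimulated genes lay lower in the cold. Of 21 measured members 6 fell and 0 rose, the median was -0.72, and in wildtype arrays 0 were called by limma (2 at an unadjusted p under 0.05), with a median of 0.05. Ddx58, the gene of the RNA sensor RIG-I, read 6.47, 5.47 and 6.07 at room temperature and 4.84, 4.44 and 5.26 at 4 °C (-1.15 ± 0.24 SE, adjusted p = 0.00915). Cmpk2 read 6.57, 4.64 and 5.52 at room temperature and 3.55, 3.83 and 4.79 at 4 °C (-1.52 ± 0.41 SE, adjusted p = 0.0383), with 4 °C replicate 3 above room temperature replicate 2. Rtp4 (-1.18 ± 0.29) and Stat2 (-1.09 ± 0.29), a subunit of the interferon-activated factor ISGF3, fell too. In Ddx58, Cmpk2, Rtp4 and Stat2, room temperature replicate 2 was the lowest of its group. The count was fragile: 6 became 1 without room temperature replicate 1 or 3 or 4 °C replicate 1 or 2, and 12 without room temperature replicate 2. The calls of Cmpk2 (0.149 without 4 °C replicate 1), Rtp4 (0.106 without 4 °C replicate 2) and Stat2 (0.127 without room temperature replicate 1) were lost under 8, 6 and 9 of 16 alternatives, that of Ddx58 under 0. The interaction was called for 0 of the 21 by limma (9 at an unadjusted p under 0.05). Mavs (probe set 17376480), the adaptor on mitochondria through which RIG-I signals, read 8.51, 8.52 and 8.37 at room temperature and 7.02, 6.82 and 7.23 at 4 °C and fell 2.72-fold (-1.44 ± 0.15 SE, adjusted p = 0.000183). In wildtype arrays it differed by 0.32 (adjusted p = 0.243), and its interaction of -1.76 ± 0.22 SE (adjusted p = 0.00625) held under all 20 alternatives (up to 0.0281).

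Vascular and matrix genes moved both ways. Of 25 angiogenesis genes 4 rose and 7 fell, as in wildtype arrays. Pgf, placental growth factor, read 2.76, 1.58 and 3.35 at room temperature and 5.48, 4.84 and 4.70 at 4 °C (2.44 ± 0.47 SE, adjusted p = 0.00595), Adm, adrenomedullin, rose by 1.66 ± 0.26, and Angpt1, the ligand that quiets vessels through TIE2, fell 4.49-fold, from 4.74, 5.65 and 4.72 at room temperature to 2.80, 3.26 and 2.55 at 4 °C (-2.17 ± 0.27 SE, adjusted p = 0.000513). The 7 falls were 3 without 4 °C replicate 1 and 4 without 4 °C replicate 2 or 3 or room temperature replicate 3. Of 26 matrix genes 6 rose and 0 fell, led by Thbs1, thrombospondin 1, from 5.10, 4.23 and 4.94 at room temperature to 8.03, 7.42 and 7.05 at 4 °C (2.74 ± 0.36 SE, adjusted p = 0.000669), and by the cross-linking enzyme gene Lox (1.36 ± 0.24). Adamts4 (1.57 ± 0.40) and Tnc (1.32 ± 0.36) rose with calls lost under 6 of 15 and 9 of 16 alternatives (up to 0.119 and 0.152, both without 4 °C replicate 1), and the 6 rises were 3 without room temperature replicate 2 or 3 or 4 °C replicate 1 or 2.

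Markers of other cell types moved in small numbers, except those of endothelium. Of 15 endothelial markers 3 rose, led by the tight junction gene Cldn5 (2.24 ± 0.33) and Robo4 (0.88 ± 0.13), and 4 fell, led by the apelin receptor gene Aplnr (-1.41 ± 0.21) and Emcn (-0.73 ± 0.15), and the 4 falls were 2 without any one of the 6 arrays but room temperature replicate 3. In wildtype arrays 4 of the 15 endothelial markers rose and 3 fell, and in each genotype 10 had an unadjusted limma p under 0.05. In the Sel1L-deficient arrays the mean of the 15 endothelial markers lay between 6.34 and 6.43 at room temperature and between 6.40 and 6.54 at 4 °C. Of 15 macrophage markers 2 rose, Cd14 (0.97 ± 0.14) and Mrc1 (0.59 ± 0.17, lost under 10 of 16 alternatives, 0.143 without room temperature replicate 3; 1 rise was left without that array, wildtype room temperature replicate 3 or any 4 °C array), with list means from 4.57 to 4.79 on the room temperature arrays and from 4.79 to 4.95 on the cold arrays. Of 12 smooth muscle and pericyte markers Cspg4 fell (-1.52 ± 0.23), with 2 falls without room temperature replicate 3. None of 12 T and B cell, 13 neutrophil and mast cell, 13 fibroblast, 9 Schwann cell, 2 red blood cell or 22 skeletal muscle markers passed with limma (2, 1, 3, 0, 0 and 0 at an unadjusted p under 0.05). The muscle markers had a median of 0.65 with no call, and with their mean as a covariate the total count was 2068. A part of these cells in the vascular, matrix and interferon results was not tested.

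**Figure D5:**
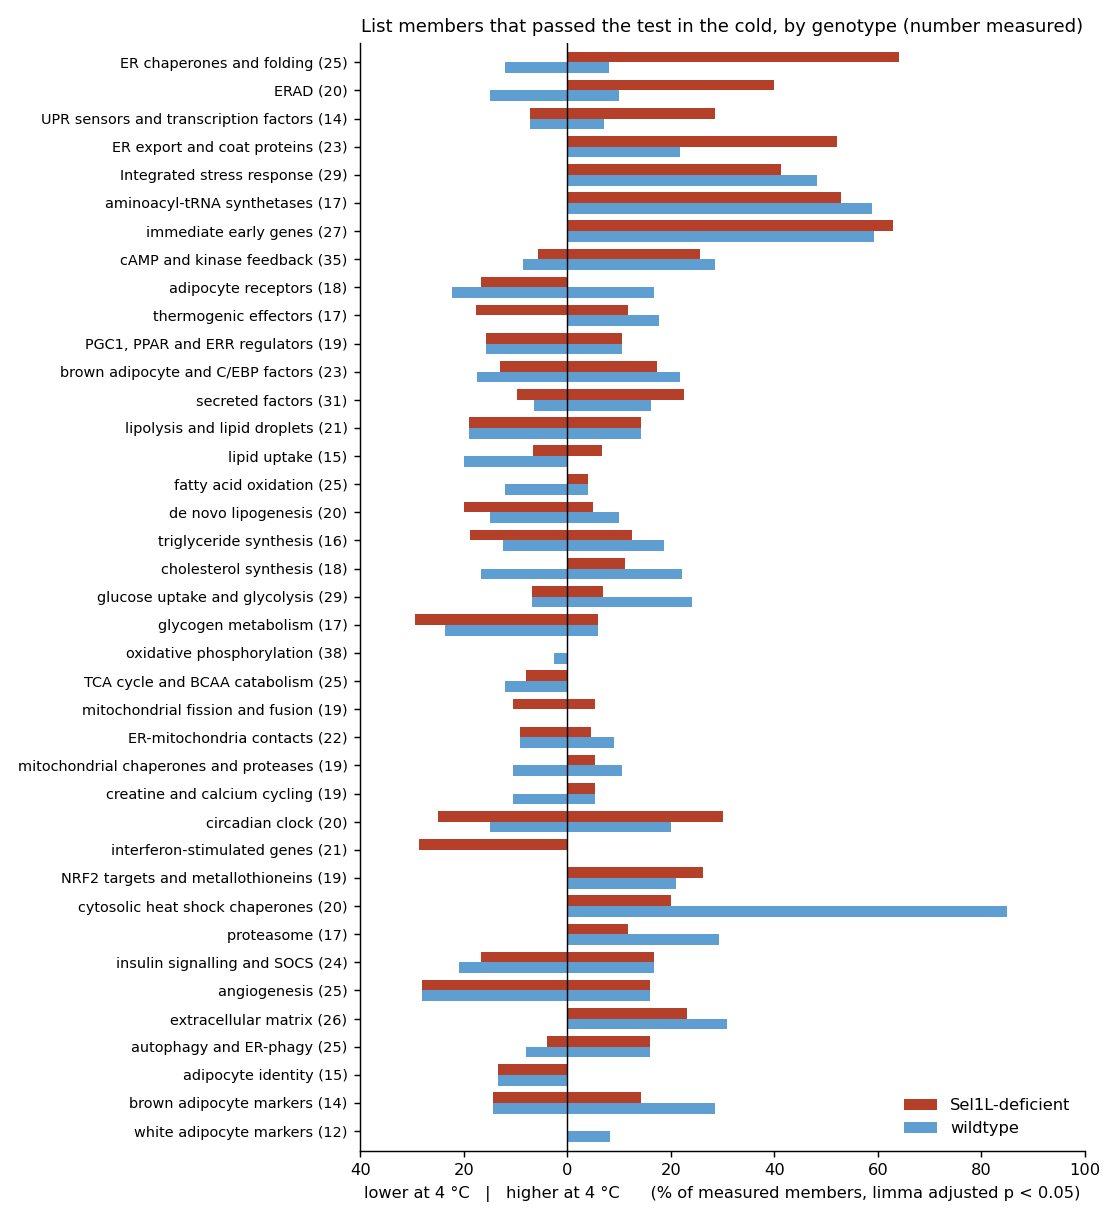
Share of the measured members of 39 gene lists that were higher (right) or lower (left) at 4 °C with a limma adjusted p under 0.05, in Sel1L-deficient (red) and wildtype (blue) tissue; the number measured stands in brackets. In the Sel1L-deficient arrays 64.0% of ER folding and 63.0% of immediate early genes rose, and in wildtype arrays 17 of 20 cytosolic heat shock chaperones rose.

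Set against wildtype tissue as a whole, 545 probe sets rose in both genotypes, 589 fell in both and 9 moved in opposite directions. The former were 53.6% of the Sel1L-deficient rises and 47.8% of the wildtype rises, and the latter were 53.3% of the Sel1L-deficient and 40.2% of the wildtype falls. The 2 comparisons share no arrays, though they share the estimate of the spread, and a probe set called in one only is not thereby shown to differ. The interaction passed for 72 probe sets (0.306%), 54 with the higher response in Sel1L-deficient arrays and 18 with the lower (0.0765%). Of the 54, 43 rose in Sel1L-deficient arrays, 32 of them without a call in wildtype arrays, and 11 fell in wildtype arrays only. Of the 18, 8 fell in Sel1L-deficient arrays and 7 rose only in wildtype arrays. This count ran from 21 (without 4 °C replicate 2 of the Sel1L-deficient group) to 123 (without 4 °C replicate 3 of the wildtypes) when single arrays were left out, and leaving out any array but room temperature replicate 2 of the Sel1L-deficient group moved it by over 1.5 times.

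Among the genes with the higher response was Prdm15 (probe set 17332595), a zinc finger regulator. It read 3.17, 2.81 and 2.96 at room temperature and 5.99, 5.56 and 5.64 at 4 °C in Sel1L-deficient arrays and 2.94, 2.51 and 2.69 at room temperature and 2.36, 2.58 and 2.12 at 4 °C in wildtype arrays. The cold arrays labelled Sel1L-deficient stood above all 9 others, and the interaction was 3.11 ± 0.23 SE (adjusted p = 0.000133). Stambpl1, a deubiquitinase, read 4.05, 3.99 and 4.06 at room temperature and 6.58, 6.55 and 6.29 at 4 °C (2.44 ± 0.17 SE, adjusted p = 8.45e-06) and differed by 0.17 (adjusted p = 0.644) in wildtype arrays, an interaction of 2.27 ± 0.24 SE (adjusted p = 0.00169). Plscr2, a phospholipid scramblase gene, rose by 2.29 ± 0.21 against 0.03 ± 0.21, an interaction of 2.26 ± 0.30 SE (adjusted p = 0.00893). These 3 and Npas2 and Mavs were the 5 of 22 named genes whose interaction call held under every alternative that included them. Stambpl1 and Mavs had all 20. Prdm15, Plscr2 and Npas2 had 19, being too dim for the fit limited to probe sets of mean 4 or more. Rbm15b, an RNA-binding gene, rose by 2.46 ± 0.29 against -0.11 ± 0.29 (2.57 ± 0.40 SE, adjusted p = 0.0265), and Ddx28 by 2.77 ± 0.15 against 1.57 ± 0.15 (1.20 ± 0.21 SE, adjusted p = 0.0344), calls lost under 7 and 13 of 20 alternatives (up to 0.0922 and 0.475, both with the array of conflicting label moved).

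Genes with the lower response were led by Plk3, a stress-induced polo-like kinase. It read 3.59, 3.31 and 4.02 at room temperature and 5.16, 5.28 and 5.27 at 4 °C in Sel1L-deficient arrays (1.60 ± 0.20 SE, adjusted p = 0.000501) and 2.99, 3.03 and 3.68 at room temperature and 7.94, 7.71 and 8.02 at 4 °C in wildtype arrays. The wildtype rise of 4.66 ± 0.20 was larger by 3.06 (SE 0.28, adjusted p = 0.000515). Of its alternatives, only moving the array of conflicting label ended that call (0.781). Ttpa, which carries vitamin E, rose in wildtype arrays (2.78, adjusted p = 0.000109) and had overlapping groups in Sel1L-deficient ones (0.53, adjusted p = 0.302), an interaction of -2.25 ± 0.38 SE (adjusted p = 0.0311). Sh2b2, an adaptor of the insulin receptor, fell by 1.25 (SE 0.19) and Fgd4, an activator of CDC42, by 0.78 (SE 0.15) in Sel1L-deficient arrays. In wildtype arrays Sh2b2 was higher at 4 °C by 0.24 (adjusted p = 0.527), with no call, and Fgd4 rose by 0.52 (adjusted p = 0.0411). Their interactions were -1.49 ± 0.27 SE (adjusted p = 0.0391) and -1.31 ± 0.21 SE (adjusted p = 0.0292). The interaction calls of Ttpa, Sh2b2 and Fgd4 were lost under 10 of 19, 14 of 20 and 11 of 20 alternatives (up to 0.856, 0.124 and 0.0887).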

How the data were processed

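Brown fat RNA was measured on 12 whole-transcript arrays, 3 per genotype and temperature. Per the labels' protocols, frozen tissue went through Trizol and RNeasy columns, and 100 ng of RNA was labelled. The deposited values are on the log2 scale, and RMA, which corrects background, normalizes quantiles and summarises probes, is named in the submitters' processing notes. The RMA version was not given in the sources used here. Of 41345 probe sets, 23521 had 1 symbol, 1814 had several and 16010 were unnamed. A gene with several was read from the brightest. With limma 3.58.1 (R 4.3.3), a model of 4 group means took in the 12 arrays, with Benjamini-Hochberg adjustment over 23521 probe sets and calls at an adjusted p under 0.05. The fit was tested on simulated data. Named genes were the 15 largest rises and falls among called genes without overlap and with a mean of at least 5 in the brighter group, the 8 leading interaction calls each way at that minimum, up to 4 leading calls of each list and a set of landmark genes. Members and lists were chosen with earlier results of these data known. Same-numbered arrays did not deviate together (correlations of -0.18, -0.05 and -0.03). The number of arrays limits the precision. Promoters are RefSeq's, build GRCm38.p6.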

Additional observations from a re-analysis of the deposited data

Results flagged for a closer look

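For 22 of the named genes the cold response of the Sel1L-deficient arrays differed from that of the wildtype arrays by limma's interaction test. The values are the Sel1L-deficient minus the wildtype response in log2, with 3 arrays in each of the 4 groups. In the ER, the difference was 2.25 for Fkbp11, 2.05 for Creld2, 1.78 for Ero1b, 1.71 for Syvn1, 1.53 for Creb3l2, 1.51 for Herpud1 and 1.42 for Dnajb11. Outside the ER it was 3.11 for Prdm15, 3.0 for Npas2, 2.57 for Rbm15b, 2.27 for Stambpl1, 2.26 for Plscr2, 1.20 for Ddx28 and 1.13 for Gclc. The responses of 8 genes were lower in the Sel1L-deficient arrays: -3.06 for Plk3, -2.36 for Atf3, -2.25 for Ttpa, -1.76 for Mavs, -1.64 for Ppara, -1.49 for Sh2b2, -1.36 for Angptl8 and -1.31 for Fgd4. Of the 22 calls, 5 were kept under every alternative that included the gene (19 or 20).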

How the results depend on the processing

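None of the 157 called responses in the Sel1L-deficient arrays and none of the 22 called interactions of named genes changed sign under an alternative. Of the 15 responses not called 2 did: with 1 array left out, Nr1d1 ran from -0.51 to 0.04 (without 4 °C replicate 1) and Vegfa from -0.32 to 0.07 (without room temperature replicate 3). Of 150 interactions not called, 51 changed sign. Of the 157, 97 stayed called under every alternative that included the gene. The fit limited to probe sets of mean 4 or more left out dimmer genes. These had 15 alternatives in place of 16 for the response, and 19 in place of 20 for the interaction. The count of 2123 called probe sets was 1044 with the array of conflicting label moved to 4 °C, and from 1276 to 2028 with 1 array left out. With the replicate number as a block it was 1948, and the block ended 8 of the named calls. The numbers are not known to pair the samples. The interaction count of 72 was 114 with only probe sets of mean 4 or more, 21 with all probe sets in the fit, 47 with the replicate block, 17 with the array moved and from 21 to 123 with 1 array left out. The wildtype count of 2606 was 0 by limma with the array moved (3602 at an unadjusted p under 0.05, lowest adjusted p 0.0632), from 1608 to 2875 with 1 array left out and 2413 with the replicate block. The cause of these shifts was not tested. Of 60 list counts above 0, 17 stayed within 1.5 times under every alternative and 43 did not. With 3 arrays per group the median standard error of a difference was 0.14. Signal over background was not assessed.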

Other observations

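The interferon-inducible GTPases of the Gbp and Irg families, which defend cells against intracellular microbes, were looked at after Irgm2 had been seen among the largest falls, so their values are given without a test. Of 13 measured members, 12 had a lower mean at 4 °C in the Sel1L-deficient arrays and 10 had groups that did not overlap, against 25.8% of all probe sets. Irgm2, which led to the choice, and Gbp4, named above as a large fall, are counted in both. The comparison with 25.8% is therefore not independent of the choice. The median difference was -1.55, from -2.28 to 0.03. Gbp4 read 4.54, 4.26 and 3.83 at room temperature and 1.87, 1.84 and 2.08 at 4 °C, and Igtp read 5.79, 5.06 and 5.06 at room temperature and 3.53, 3.62 and 4.12 at 4 °C. In wildtype arrays the median was -0.56, with 9 of 13 lower. Gbp9 was lower at 4 °C by like amounts in both genotypes, at -1.91 in Sel1L-deficient and -2.05 in wildtype arrays. At room temperature 11 of the 13 had a higher mean in the Sel1L-deficient than in the wildtype arrays, with a median difference of 0.77.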
